A study of Mus musculus with 6 samples.

Results

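The axon guidance families are secreted and membrane-bound cues with their receptors, and the 58 members described here are the genes whose symbols match those of these families: semaphorins with plexins and neuropilins, ephrins with Eph receptors, Slits with Robo receptors, and netrins with Unc5 receptors. They are 58 of the 19618 genes in the deposited count table. RNA sequencing was done on tail-skin keratinocytes of mice aged 4 months, in 2 groups of 3 libraries. The knockout mice carried the K14cre transgene, which drives Cre from the keratin 14 promoter of basal keratinocytes, and were homozygous for a floxed Gpr161 allele. The control mice had no K14cre in their labels. The control with title number 1 was homozygous for the floxed allele, and those with numbers 2 and 3 were heterozygous, so all 6 mice carried at least 1 floxed allele. The knockout libraries are called DE679, DE685 and DE688 here and the control libraries DE680, DE684 and DE689, after tags in the deposited table, which do not show which control was homozygous.

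Guidance cues were first described as signals that steer growing axons, and the same proteins act between neighbouring cells in epithelia and blood vessels. Semaphorins bind plexins, which act on small GTPases, and most secreted class 3 semaphorins also need a neuropilin as coreceptor. Ephrins are tied to the membrane, so that ephrin and Eph receptor meet at cell contacts and both sides can signal. Slits are secreted ligands of Robo receptors, and netrins are secreted ligands of the Unc5 family and of Dcc. In skin, Eph receptors and semaphorins are known for roles in keratinocyte adhesion and differentiation and in nerve supply.

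Slit3, Robo2, Sema5a and Efnb2 rose in the knockout and Sema3d fell. Slit3 encodes a Slit ligand, Robo2 a Slit receptor, Sema5a a membrane-bound semaphorin, Efnb2 the ligand ephrin-B2, and Sema3d a secreted semaphorin. For these 5, edgeR's quasi-likelihood test gave a p under 0.05 after Benjamini-Hochberg adjustment over all 15422 genes tested, and such genes are termed called. They are 8.62% of the 58 members, and 52 members were tested, the other 6 having too few counts. Over all genes tested the same threshold called 1.6%, with 1.24% higher and 0.357% lower in the knockout. At an unadjusted p under 0.05 there were 18 members (31.0% of 58), against 19.0% of all genes tested. The median log2 fold change was 0.15 over the 52 tested members and −0.0036 over all genes tested. Counts over tested members are a description only, because the filter on low counts can keep a gene through the group where it is high.

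The promoters of 3 of the called genes are shown because these genes moved with genotype and their windows hold 0 annotated exon bases. Each run is the 250 bases before a RefSeq gene start on GRCm38.p6, 5′ to 3′ on the gene's strand, with capitals marking the GC box (GGGCGG or its reverse complement CCGCCC) and the TATA box (TATAAA or TTTATA).
Efnb2, chr8:8661243-8661492, minus strand: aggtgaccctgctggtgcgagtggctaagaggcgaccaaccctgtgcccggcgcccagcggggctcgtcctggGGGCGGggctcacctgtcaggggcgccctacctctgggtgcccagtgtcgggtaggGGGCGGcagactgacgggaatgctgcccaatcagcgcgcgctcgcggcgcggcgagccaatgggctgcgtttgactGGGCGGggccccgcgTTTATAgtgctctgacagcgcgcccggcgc
Robo2, chr16:74411826-74412075, minus strand, 1 of 3 RefSeq starts: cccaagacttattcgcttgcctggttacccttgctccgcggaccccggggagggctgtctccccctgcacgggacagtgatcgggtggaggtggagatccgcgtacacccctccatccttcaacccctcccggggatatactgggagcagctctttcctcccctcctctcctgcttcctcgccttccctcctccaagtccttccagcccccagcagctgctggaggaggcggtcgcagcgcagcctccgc
Sema3d, chr5:12382916-12383165, plus strand: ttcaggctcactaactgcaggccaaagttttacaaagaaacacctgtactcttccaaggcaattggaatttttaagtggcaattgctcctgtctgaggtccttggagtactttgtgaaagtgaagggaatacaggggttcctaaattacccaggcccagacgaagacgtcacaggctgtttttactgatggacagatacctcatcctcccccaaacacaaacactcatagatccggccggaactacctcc
The Efnb2 window held 3 GC boxes and 1 TATA box, and the windows of Robo2 and Sema3d held neither. Both strands were searched, and a GC box and a TATA box have no letters in common, so they cannot overlap. The GLI motif GACCACCCA (reverse complement TGGGTGGTC) was in 0 of the 65 windows of the 49 members that have a RefSeq window, and in 0.225% of all 32851 windows. A GC box was in 73.8% of the members' windows and in 32.7% of all windows, and a TATA box in 3.08% and 12.4%. A match of letters is a description of the window and not a binding site. The windows of Slit3 and Sema5a overlap annotated exons by 232 and 103 bases and are named only.

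The Slit and Robo pair held the largest rise. Slit3 (chromosome 11, 35121224 to 35708507, plus strand, GRCm38), a secreted ligand, had 42.1, 52.7 and 37.7 CPM in DE679, DE685 and DE688, where CPM is the estimated count relative to the library total after scaling by trimmed mean of M values (TMM). In the control it had 18.6, 17.5 and 16.3 CPM in DE680, DE684 and DE689. Every knockout library was higher than every control library. The means were 44.2 ± 7.68 and 17.5 ± 1.17 CPM (SD, n = 3 each). The knockout was higher by 1.34 on the log2 scale (SE 0.13, adjusted p 0.00459 in edgeR), and Slit3 passed in 6 of the 6 fits that left out 1 library.

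Robo2 (chromosome 16, 73891839 to 74411825, minus strand) encodes a receptor that Slits bind. It had 42.8, 57.1 and 42.6 CPM in DE679, DE685 and DE688, against 23.6, 29.6 and 22.0 CPM in DE680, DE684 and DE689. The groups did not overlap, and DE685 and DE684 were the highest library of their group. The means were 47.5 ± 8.34 and 25.1 ± 4.01 CPM (SD, n = 3 each), and log2 of the fold change was 0.92 (SE 0.15, adjusted p 0.0360 in edgeR). It passed in 1 of the 6 fits that left out 1 library, the one without DE684, and its adjusted p reached 0.113 without DE689.

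Robo1, the other Robo receptor with more than trace levels, varied within groups. It had 37.8, 42.7 and 29.1 CPM in DE679, DE685 and DE688 and 30.7, 53.4 and 20.1 CPM in DE680, DE684 and DE689. The groups overlapped, and DE684 and DE685 were again the highest of their group. The log2 fold change was 0.07 with a 95% interval from −0.67 to 0.82 (edgeR adjusted p 0.930), so changes of those sizes were not separable from the spread. Whether Robo1 and Robo2 differed from each other in their change was not tested. Slit1 had 1.55 ± 0.544 against 0.952 ± 0.247 CPM (SD, n = 3 each), with overlapping groups and an adjusted p of 0.326 in edgeR. Slit2 and Robo4, a Robo of blood vessel endothelium, were too low to test, with 4 to 19 and 2 to 9 estimated counts per library.

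**Figure D1:**
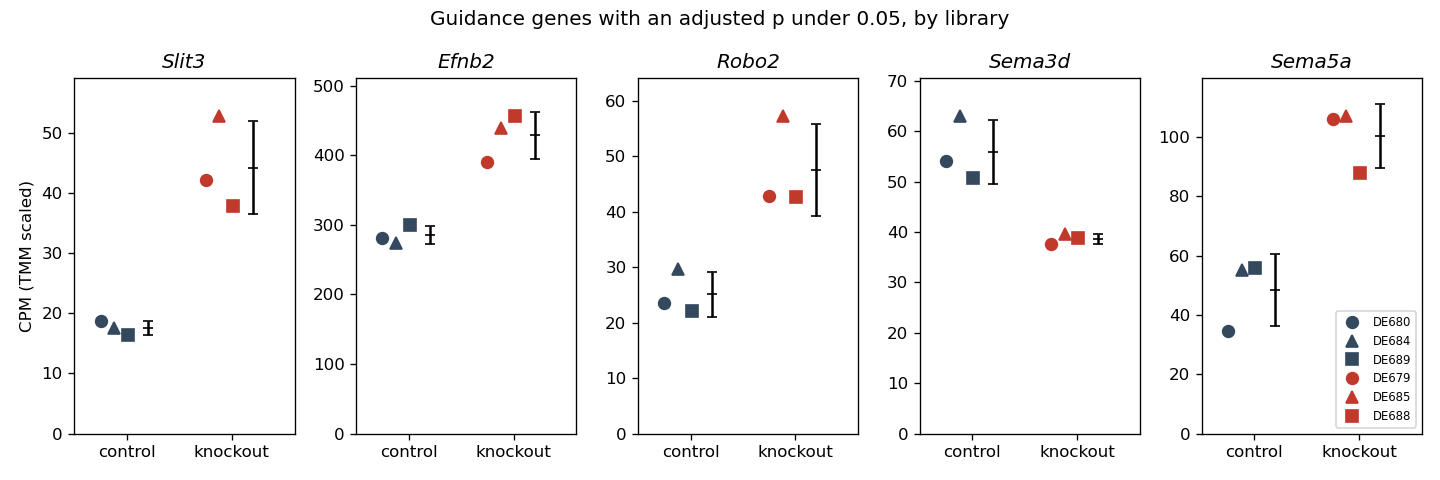
Level in CPM (TMM scaled, axis from 0) of the 5 called guidance genes in each control (dark) and knockout (red) library, with mean ± SD of 3 libraries beside the points; the same marker shape stands for neighbouring column tags. The groups do not overlap for any of the 5, with Slit3 at 37.7 to 52.7 in the knockout and 16.3 to 18.6 in the control.

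Among ephrin ligands, Efnb2 was the called member of 8 tested. Efnb2 (chromosome 8, 8617434 to 8661242, minus strand) encodes ephrin-B2, a transmembrane ligand of EphB receptors, among them Ephb4. It had 391, 438 and 456 CPM in DE679, DE685 and DE688, against 281, 274 and 300 CPM in DE680, DE684 and DE689. All 3 knockout libraries were above all 3 control libraries. The means were 428 ± 33.5 and 285 ± 13.1 CPM (SD, n = 3 each), and log2 of the fold change was 0.59 (SE 0.07, adjusted p 0.0135 in edgeR). It passed in 4 of the 6 fits that left out 1 library, with an adjusted p of 0.0640 without DE680 and 0.0606 without DE688.

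The other ephrins-B did not pass. Efnb3 had 2.41 ± 0.269 against 1.40 ± 0.326 CPM (SD, n = 3 each), without overlap and with an edgeR adjusted p of 0.180. Efnb1, on the X chromosome, had 173 ± 16.2 against 169 ± 24.1 CPM (SD, n = 3 each) and a log2 fold change of 0.03 with a 95% interval from −0.23 to 0.30.

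The ephrins-A are held to the membrane by a lipid anchor. Of 5 tested, 0 were called in edgeR or in DESeq2, with 1 at an unadjusted p under 0.05 in each. Over all genes tested, edgeR called 1.6% and DESeq2 5.65%, and 19.0% had an unadjusted p under 0.05 in edgeR. Efna1, a ligand of Epha2, had 93.2 ± 5.19 against 79.1 ± 4.19 CPM (SD, n = 3 each) and a log2 fold change of 0.24 (edgeR adjusted p 0.132). Its groups did not overlap. Efna3 had a log2 fold change of −0.03 with an interval from −0.22 to 0.16, and Efna4 of 0.015 with an interval from −0.17 to 0.20. Efna2 was at 6.12 ± 1.20 against 4.56 ± 0.318 CPM (SD, n = 3 each; edgeR adjusted p 0.272).

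Of the 9 Eph receptors tested, 0 were called at the adjusted threshold in edgeR, and 4 had an unadjusted p under 0.05. Over all genes tested those shares were 1.6% and 19.0%. Ephb4, whose ligand is ephrin-B2, had 126, 145 and 135 CPM in DE679, DE685 and DE688 and 113, 101 and 112 CPM in DE680, DE684 and DE689. The groups did not overlap, and log2 of the fold change was 0.32 (SE 0.07, adjusted p 0.0864 in edgeR). Exons of Ephb4 overlap those of Zan on the opposite strand, and whether counting used the strand is not given in the sources used here. Ephb3 had 83.0 ± 3.36 against 70.1 ± 2.16 CPM (SD, n = 3 each) and a log2 fold change of 0.24 (edgeR adjusted p 0.0938). Ephb4 and Ephb3 passed in the DESeq2 Wald test, with adjusted p of 0.00967 and 0.0420.

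Ephb1 had 2.73 ± 0.418 against 1.74 ± 0.460 CPM (SD, n = 3 each) and an edgeR adjusted p of 0.261. Ephb2 went the other way, at 4.99 ± 0.885 against 6.83 ± 2.70 CPM (SD, n = 3 each), with overlapping groups. Its log2 fold change was −0.45 (edgeR adjusted p 0.438). Epha2, an Eph receptor kinase of the epidermis, had 72.2 ± 2.26 against 82.8 ± 8.20 CPM (SD, n = 3 each), with overlapping groups and an edgeR adjusted p of 0.237. Ephb6, an Eph protein without kinase activity, had 446, 416 and 437 CPM in the knockout libraries DE679, DE685 and DE688 and 440, 432 and 425 CPM in the control libraries DE680, DE684 and DE689. Its log2 fold change was 0.0012 with a 95% interval from −0.13 to 0.13. Epha1 had 168 ± 2.98 against 175 ± 3.79 CPM (SD, n = 3 each), and its groups did not overlap although the log2 fold change was −0.06 (edgeR adjusted p 0.523). Exons of Epha1 overlap those of Zyx on the opposite strand.

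Among 19 semaphorins, 15 were tested, Sema5a rose and Sema3d fell. Sema5a (chromosome 15, 32244810 to 32696341, plus strand), a membrane-bound semaphorin with thrombospondin repeats, had 106, 107 and 87.9 CPM in DE679, DE685 and DE688. In DE680, DE684 and DE689 it had 34.6, 55.1 and 55.8 CPM. The groups did not overlap, and DE680 was the lowest library. The means were 100.3 ± 10.8 and 48.5 ± 12.1 CPM (SD, n = 3 each), and log2 of the fold change was 1.05 (SE 0.18, adjusted p 0.0389 in edgeR). It passed in 1 of the 6 fits with 1 library left out, the one without DE680, where the log2 fold change was 0.85, and its edgeR adjusted p reached 0.149 without DE679.

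Sema3d (chromosome 5, 12383385 to 12588948, plus strand), a secreted class 3 semaphorin, had 37.6, 39.5 and 38.7 CPM in DE679, DE685 and DE688. In DE680, DE684 and DE689 it had 54.0, 62.9 and 50.8 CPM. The 3 knockout libraries lay close together and below every control library. The means were 38.6 ± 0.975 and 55.9 ± 6.29 CPM (SD, n = 3 each), and log2 of the fold change was −0.53 (SE 0.09, adjusted p 0.0366 in edgeR). It passed in 1 of the 6 fits with 1 library left out, the one without DE689, and its adjusted p reached 0.156 without DE679.

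The other class 3 semaphorins tested did not pass in edgeR. Sema3e, which binds Plxnd1 without a neuropilin, had 20.4, 25.01 and 24.8 CPM in DE679, DE685 and DE688 and 16.9, 9.26 and 14.4 CPM in DE680, DE684 and DE689. Its groups did not overlap, and the log2 fold change of 0.79 had an adjusted p of 0.110 in edgeR and 0.00490 in DESeq2. Sema3f, a ligand of Nrp2, had a log2 fold change of −0.03 with an interval from −0.28 to 0.23. Sema3b was at 1.54 ± 0.469 against 0.995 ± 0.127 CPM (SD, n = 3 each; edgeR adjusted p 0.310).

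The class 6 semaphorins are membrane-bound ligands of A plexins, and the 3 tested had groups that did not overlap, all with knockout above control. In edgeR and in DESeq2, 0 were called, with 2 and 3 at an unadjusted p under 0.05. The shares of all genes tested were 1.6% and 5.65% called, and 19.0% at that unadjusted p in edgeR. Sema6a had 17.9 ± 0.835 against 13.5 ± 2.20 CPM (SD, n = 3 each; edgeR adjusted p 0.158). Sema6c had 6.05 ± 1.68 against 3.83 ± 1.14 CPM (SD, n = 3 each; edgeR adjusted p 0.267). Sema6d had 2.10 ± 0.380 against 1.26 ± 0.0978 CPM (SD, n = 3 each; edgeR adjusted p 0.185). The groups did not overlap for 25.6% of all genes tested and for 23 of the 58 members (39.7%), counting those tested.

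Class 4 semaphorins, with 5 tested, gave 0 calls in edgeR and in DESeq2, with 1 at an unadjusted p under 0.05 in each. Among all genes tested, 1.6% and 5.65% were called, and 19.0% had that unadjusted p in edgeR. Sema4d, a ligand of B plexins, had 31.1 ± 2.01 against 39.0 ± 4.18 CPM (SD, n = 3 each) and a log2 fold change of −0.33 (edgeR adjusted p 0.143), without overlap. Sema4a had 87.3 ± 4.70 against 78.1 ± 6.66 CPM (SD, n = 3 each; edgeR adjusted p 0.307), and Sema4b had a log2 fold change of 0.06 with an interval from −0.16 to 0.27. Sema7a, anchored by a lipid and a ligand of Plxnc1, had 2.28 ± 0.568 against 2.37 ± 0.587 CPM (SD, n = 3 each; edgeR adjusted p 0.941). Sema3a, Sema3g, Sema4f and Sema6b were not tested, with 1 to 11 estimated counts per library.

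Of the 10 plexins and neuropilins, which receive semaphorins, 0 were called in edgeR or in DESeq2. An unadjusted p under 0.05 was found for 2 and 3 of them. Over all genes tested, 1.6% and 5.65% were called, and 19.0% had that unadjusted p in edgeR. Plxna2 had 80.6 ± 5.03 against 91.1 ± 4.39 CPM (SD, n = 3 each) and a log2 fold change of −0.18 (edgeR adjusted p 0.221). Plxnb1, a receptor of Sema4d, had 249 ± 3.13 against 222 ± 14.8 CPM (SD, n = 3 each) and a log2 fold change of 0.17 (edgeR adjusted p 0.224). Plxnb1 shares exon positions with Gm7628 on the opposite strand. Neither gene's groups overlapped.

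The remaining plexins did not pass. Plxnb2, without overlap of the groups, had a log2 fold change of 0.11 with an interval from −0.02 to 0.25, and Plxna1 of 0.09 with an interval from −0.10 to 0.28. Plxna3, on the X chromosome, had 28.6 ± 4.15 against 22.6 ± 4.49 CPM (SD, n = 3 each; edgeR adjusted p 0.303), with overlapping groups. Plxnd1 had a log2 fold change of −0.07 with an interval from −0.46 to 0.32, and Plxnc1 of 0.40 with an interval from −0.40 to 1.20.

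Nrp1 and Nrp2 are coreceptors of class 3 semaphorins and also bind vascular growth factors. Nrp1 had 2.89 ± 0.402 against 3.92 ± 0.181 CPM (SD, n = 3 each; edgeR adjusted p 0.271), without overlap. Nrp2 had 49.7 ± 3.93 against 54.6 ± 3.70 CPM (SD, n = 3 each; edgeR adjusted p 0.417), with overlapping groups. The intervals of the log2 fold change were −0.88 to 0.0099 for Nrp1 and −0.33 to 0.06 for Nrp2.

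Netrins and Unc5 receptors gave 0 calls among 6 tested in edgeR and 1 in DESeq2, with 1 at an unadjusted p under 0.05 in each. Among all genes tested, edgeR called 1.6% and DESeq2 5.65%, and 19.0% had that unadjusted p in edgeR. Ntn1, the netrin best known as an axon attractant, was low, with 1.06, 1.10 and 1.24 CPM in DE679, DE685 and DE688 and 2.40, 3.38 and 1.98 CPM in DE680, DE684 and DE689. Every knockout library was below every control library, and the log2 fold change of −1.18 (SE 0.28) had an adjusted p of 0.0933 in edgeR and 0.0416 in DESeq2. Ntn4, a basement membrane netrin, had 25.9 ± 4.20 against 23.3 ± 3.30 CPM (SD, n = 3 each; edgeR adjusted p 0.604). Unc5b, a netrin receptor, had 111 ± 7.32 against 100.5 ± 9.41 CPM (SD, n = 3 each) and a log2 fold change of 0.14 with an interval from −0.05 to 0.34.

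**Figure D2:**
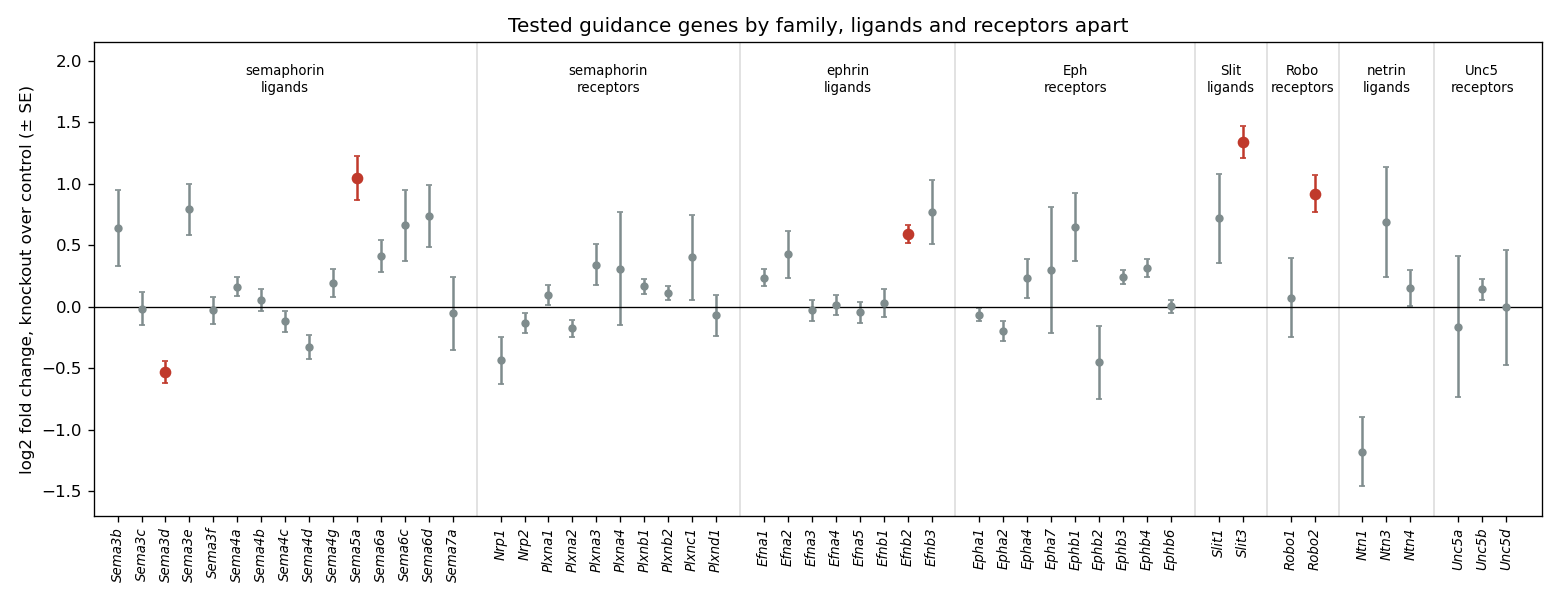
Log2 fold change of knockout over control (± SE, edgeR quasi-likelihood fit) for the 52 tested guidance genes, with ligands and receptors of each family apart; red marks an adjusted p under 0.05 and grey the rest. Slit3, at 1.34, is the highest point, and the lowest point, Ntn1 at −1.18, is not called.

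By family, the medians of the log2 fold change were 0.16 over 15 semaphorins, 0.10 over 10 plexins and neuropilins, 0.13 over 8 ephrins and 0.23 over 9 Eph receptors. Values above 0 were found for 9 of the 15 semaphorins, 6 of the 10 plexins and neuropilins, 6 of the 8 ephrins and 6 of the 9 Eph receptors. In edgeR the called ligands were Slit3, Efnb2, Sema5a and Sema3d, and the called receptor was Robo2. DESeq2 also called the ligands Ntn1 and Sema3e and the receptors Ephb4 and Ephb3. Whether ligands and receptors differed in how often they changed was not tested.

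Levels between genes were compared as CPM per kilobase of exon. The highest was Ephb6, with 115 ± 4.05 in the knockout and 115 ± 2.05 in the control, and next came Efna3 with 94.0 ± 3.89 and 96.0 ± 9.96 (SD, n = 3 each). Efnb2 (62.5 ± 4.89 and 41.5 ± 1.92), Efnb1 (49.99 ± 4.70 and 48.9 ± 6.99) and Efna1 (50.9 ± 2.83 and 43.2 ± 2.29) followed. In the control Efna1 and Efnb2 differed by less than the SD of either. Efnb1 was above Efna1 there by less than its own SD but by more than that of Efna1. In the knockout Efnb2 was above the other 2 by more than an SD. The most abundant semaphorin was Sema3f (23.2 ± 2.52 and 23.7 ± 2.86) and the most abundant plexin Plxnb2 (40.7 ± 0.398 and 37.7 ± 1.78).

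The Slit and Robo genes sat lower on the same scale. Slit3 was at 7.28 ± 1.27 CPM per kilobase in the knockout and 2.88 ± 0.192 in the control, rank 25 of 58 over all 6 libraries. Robo2 was at 2.80 ± 0.491 and 1.48 ± 0.236, and Robo1 at 2.21 ± 0.417 and 2.10 ± 1.03 (SD, n = 3 each). Mean Robo2 was thus below mean Robo1 in the control and above it in the knockout, with overlapping SDs in both groups. Sema5a, at 5.37 ± 0.576 and 2.60 ± 0.647, and Sema3d, at 4.49 ± 0.113 and 6.50 ± 0.731, had opposite orders in the 2 groups, without overlapping SDs in either group.

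**Figure D3:**
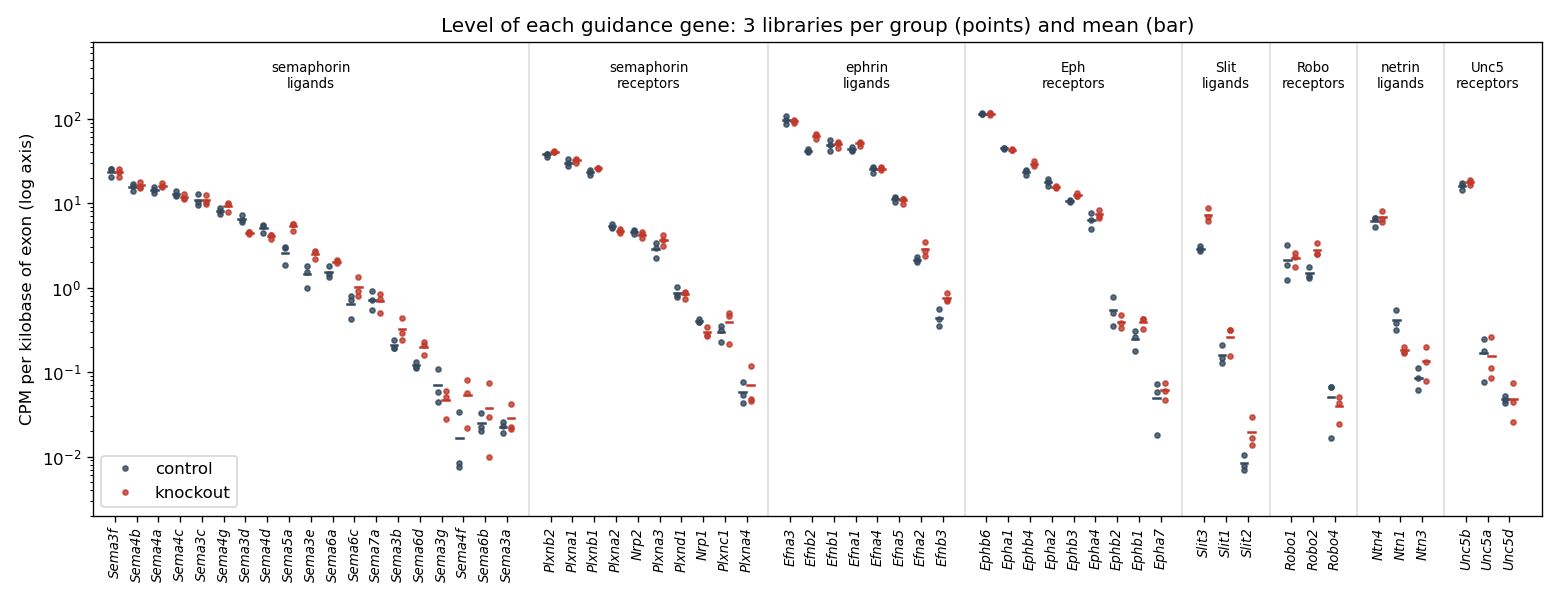
Level of each of the 58 guidance genes in CPM per kilobase of exon (log axis), with 3 control libraries in dark and 3 knockout libraries in red and a bar at each mean, ordered within each family by level. Ephb6 is the highest, with means of 115 in both groups, and levels span from there to 0.00838 for Slit2 in the control.

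Neighbouring column tags marked libraries that varied together. Deviations from the group mean over 13665 genes correlated at 0.248 (DE679 with DE680), 0.411 (DE685 with DE684) and 0.434 (DE688 with DE689), and at −0.365 to −0.0811 for other knockout and control pairs. The deviations of a group sum to 0 for each gene, so positive values in some pairs make others negative by construction. What the tags stand for is not in the labels. DE685 and DE684 held 3311 and 5291 counts of 4 Y-linked genes, and the other libraries 0 to 3. Xist had 6.18 and 1 counts in DE685 and DE684 and 17265 to 18182 in the other libraries. DE685 and DE684 were thus read as male and the others as female, so their pair also differs from the others in sex. With the pairs of neighbouring tags as blocks, edgeR called 4.56% of all genes and the same 5 guidance genes. Their adjusted p with blocks were 0.00131 for Slit3, 0.00379 for Efnb2, 0.00147 for Robo2, 0.0138 for Sema3d and 0.0136 for Sema5a. The DESeq2 Wald test without blocks called 5.65% of all genes and 9 members, adding Ephb4, Ephb3, Ntn1 and Sema3e.

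Within the pairs, Slit3 was higher in the knockout by 1.18, 1.59 and 1.21 on the log2 scale. Robo2 was higher by 0.86, 0.95 and 0.95. Sema5a was higher by 1.62, 0.96 and 0.65, and Sema3d changed by −0.52, −0.67 and −0.39. Robo1 changed by 0.30, −0.32 and 0.53 in the same order of pairs, without a shared direction. All 3 pairs were higher in the knockout for 21 of 52 members and lower for 9, against 23.3% and 23.5% of all genes tested.

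**Figure D4:**
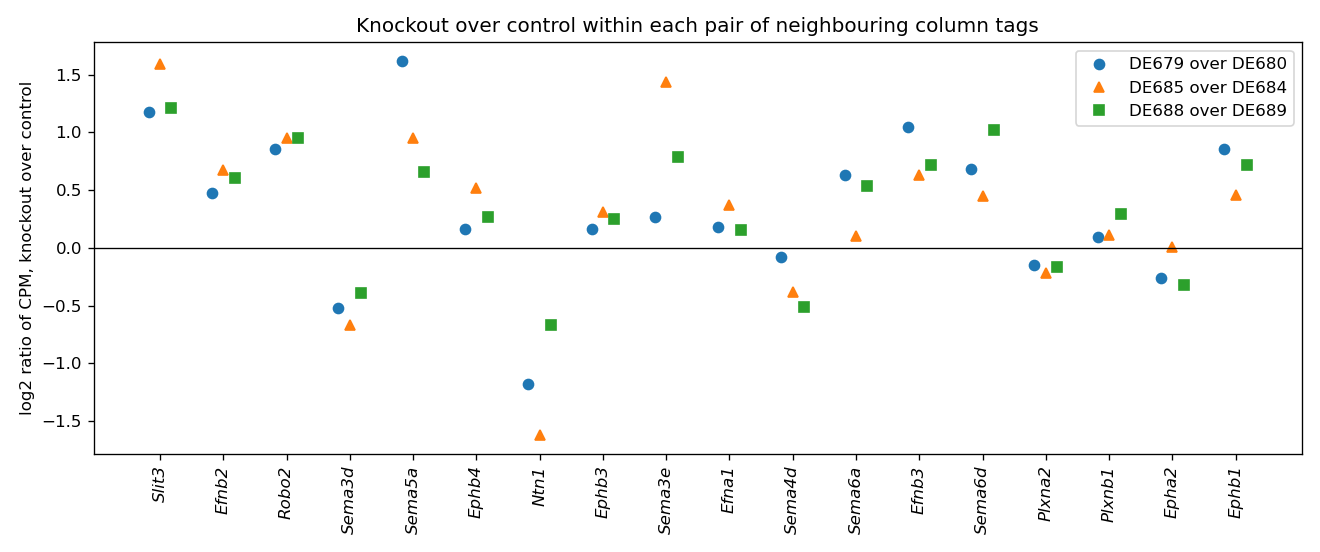
Log2 ratio of CPM, knockout over control, within each of the 3 pairs of neighbouring column tags, for the 18 members with an unadjusted p under 0.05, ordered by p from left to right. The 3 points of Robo2 lie at 0.86 to 0.95, while those of Sema5a spread from 0.65 to 1.62.

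Genes that work with these families outside the symbol rule were counted in 5 lists of partners. Of 99 listed, 91 were tested and 5 were called higher in edgeR (5.49%), against 1.24% of all genes tested. In edgeR 0 were called lower (13 at an unadjusted p under 0.05), against 0.357% of all genes tested, and in DESeq2 0. DESeq2 called 7 of the 91 partners and 5.65% of all genes tested. An unadjusted p under 0.05 in edgeR was found for 30 of the 91, against 19.0% of all genes tested. Inppl1, a lipid phosphatase that binds Eph receptors, had 34.3 ± 1.02 against 22.9 ± 1.14 CPM (SD, n = 3 each) and a log2 fold change of 0.59 (edgeR adjusted p 0.0134). Ptk7, a kinase-dead receptor that can associate with plexins, had 197 ± 4.26 against 155 ± 2.80 CPM (SD, n = 3 each; edgeR adjusted p 0.0225). Rgma, a ligand of the netrin receptor neogenin, had 118 ± 10.6 against 84.7 ± 5.24 CPM (SD, n = 3 each; edgeR adjusted p 0.0389).

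Maged1, which binds Unc5 receptors, and Itsn1, a scaffold and exchange factor for Cdc42 that acts with EphB receptors, had log2 fold changes of 0.38 and 0.59 (edgeR adjusted p 0.0366 and 0.0412). By list, calls were 1 of 5 for netrin and RGM partners, 1 of 15 for coreceptors, 0 of 27 for plexin effectors, 2 of 24 for Eph effectors and 1 of 20 for Robo and netrin effectors. At an unadjusted p under 0.05 there were 9 plexin effectors, 5 of them higher. Mical3 and Farp1 of this list were called higher in edgeR with blocks (adjusted p 0.0251 and 0.0481) and in DESeq2. Ptk7 passed in 0 of the 6 fits that left out 1 library, Inppl1 in 3, and Itsn1, Maged1 and Rgma in 1 each.

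Total estimated counts were 17157864 to 25344399 per library. The groups were checked by Gli1 and Ptch1, targets of Hedgehog signalling, with log2 fold changes of 2.93 and 1.58 (edgeR adjusted p 1.77e-05 and 0.00228). Gpr161 itself was at 25.9 to 33.6 CPM in the knockout and 30.2 to 32.2 CPM in the control (edgeR adjusted p 0.553), so whole-gene counts do not check the deletion. The labels do not say which libraries shared a litter or a preparation, so p-values measure the spread between these libraries. Keratinocyte markers were abundant, with summed levels of 39612 to 48657 CPM in the knockout and 37953 to 55588 CPM in the control over 8 of 8 genes. The list was split, with 5 of 8 fold changes above 0. EdgeR called 0 without or with blocks, and DESeq2 called 1. Krt5 and Trp63 had log2 fold changes of 0.21 and 0.23 without overlap (edgeR adjusted p 0.273 and 0.104). Krt1 and Krt10 had −0.25 and −0.34 with overlapping groups (edgeR adjusted p 0.777 and 0.423).

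Markers of other cells were measured because many guidance genes are also made by vessels, nerves and fibroblasts, and in bulk samples a change in cell numbers and a change in RNA per cell cannot be told apart. The hair follicle stem cell list, mostly Krt15, summed to 2203 to 2615 CPM in the knockout and 1693 to 1965 CPM in the control. The sum was over 8 of 8 genes, and 7 of them had fold changes above 0. Cd34 was the exception, at 11.8 ± 3.48 against 14.6 ± 2.19 CPM (SD, n = 3 each), with overlapping groups. Its log2 fold change was −0.29 (edgeR adjusted p 0.504 without blocks and 0.191 with them). In edgeR without blocks Nfatc1 and Foxc1 were called higher, and 6 of the 8 had an unadjusted p under 0.05, all 6 higher. With blocks in edgeR, and in DESeq2, 6 were called higher, adding Sox9, Krt15, Lgr5 and Lhx2. For this and the other lists, the shares of all genes called were 1.6% in edgeR, 4.56% with blocks and 5.65% in DESeq2. An unadjusted p under 0.05 in edgeR without blocks was found for 19.0% of all genes tested. The fibroblast list was at 174 to 188 against 63.8 to 102 CPM over 9 of 9 genes, with Dcn at 112 to 123 against 20.8 to 40.6 CPM and Thy1 at 36.6 to 49.3 against 18.8 to 28.6 CPM. Dcn was called higher in edgeR, and Thy1 had an edgeR adjusted p of 0.0560 without blocks and 0.0264 with them, and DESeq2 called both. The list was split, with fold changes above 0 for 3 of its 7 tested genes. Fbn1 was lower in every knockout library, at 1.11 ± 0.233 against 2.21 ± 0.709 CPM (SD, n = 3 each; edgeR adjusted p 0.166). Col1a2 and Col3a1 had log2 fold changes of −0.42 and −0.54 (edgeR adjusted p 0.599 and 0.489). Col1a1 was at 4.71 to 6.46 against 3.81 to 12.6 CPM and Lum at 0.116 to 0.272 CPM in all libraries. The pericyte and smooth muscle list was at 149 to 184 against 105 to 125 CPM over 5 of 6 genes, mostly Cspg4. Cspg4 was called higher in edgeR (adjusted p 0.0427 without blocks and 0.0200 with them). Rgs5, too low to test, was at 0.231 to 1.14 against 0.0439 to 0.222 CPM, without overlap. Acta2 and Tagln had fold changes above 0 with overlapping groups, and Myh11 was at 0.170 to 0.520 CPM in all libraries. The melanocyte list was at 86.5 to 127 against 59.4 to 87.0 CPM over 8 of 8 genes, all 8 with fold changes above 0. Of these 8, 0 were called in edgeR without blocks (3 at an unadjusted p under 0.05), 1 with blocks (Mitf, adjusted p 0.0273) and 1 in DESeq2. 
The endothelial list, over 11 of 11 genes, summed to 6.30 to 8.10 CPM in the knockout and 7.93 to 12.6 CPM in the control, and its highest marker reached 2.54 CPM. Of its 9 tested genes, 1 (Vwf) had a fold change above 0. In edgeR 0 were called, and 2 had an unadjusted p under 0.05, Tie1 and Cldn5, both lower. Of all genes tested, 1.6% were called in edgeR and 19.0% had such an unadjusted p. Schwann cell markers summed to 65.6 to 73.1 against 60.5 to 66.4 CPM over 7 of 7 genes, mostly Mbp. Immune cell markers summed to 55.4 to 130.05 against 28.7 to 109 CPM over 9 of 9 genes, all 9 with fold changes above 0 and 1 called in edgeR with blocks (Cd74, adjusted p 0.0438), and were lowest in DE685 and DE684 of their groups. Merkel cell markers were at 7.16 to 10.5 against 7.23 to 8.01 CPM over 7 of 7 genes, skeletal muscle markers at 2.19 to 2.88 against 1.95 to 3.11 CPM over 3 of 6, and sebaceous gland markers at 7076 to 8109 against 7222 to 8422 CPM over 6 of 6. Among the sebaceous gland markers, 2 of 6 had fold changes above 0, 0 were called in edgeR and 1 in DESeq2. Mgst1 of this list was lower in every knockout library, at 381 ± 49.5 against 474 ± 21.7 CPM (SD, n = 3 each; edgeR adjusted p 0.148). The part of any of these cell types in the results was not tested.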

How the data were processed

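The members and gene lists were chosen with earlier results of these data known. The authors deposited estimated counts per gene, of which 53.0% to 57.7% per library were whole numbers, and a normalized signal in which each value equalled the count times a constant of its library plus 0.001. Per the submitters' processing notes, mm10, bcl2fastq 2.20, cutadapt 1.18, STAR 2.7.0f and Partek were used, with roles, annotation and use of strand not given in the sources used here. Column names show the group only, so columns were assigned to groups and not to titles. Estimated counts were rounded, filtered with the filterByExpr defaults and TMM scaled, and the 6 libraries together entered the quasi-likelihood test of edgeR 4.0.16 (R 4.3.3), genotype being the only term; the test had been laid out for counts and was kept for rounded estimated counts. P-values were adjusted by Benjamini-Hochberg over all genes tested. Each SE was taken as the log2 fold change over the root of F, and gave the 95% interval with the fit's degrees of freedom. The fit was tested on simulated data. For 3 against 3 libraries the smallest exact two-sided permutation p is 0.1. Chi-square over degrees of freedom between libraries of a group was 11.2 to 36.3, above sampling noise, so each counted as 1 sample. Exon lengths, overlaps and coordinates came from GENCODE M21, where all 58 members had the file's start and end, and promoters from RefSeq on GRCm38.p6.

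The genes named first were every called member, further members of at least 1 CPM in order of p up to 25, the most abundant member per kilobase of each subset, called partners (at most 8), and Gpr161, Gli1 and Ptch1; further members were named to cover each family. Lists were the 5 partner lists and 11 marker lists: keratinocyte, endothelial, fibroblast, pericyte and smooth muscle, Schwann, melanocyte, immune cell, Merkel cell, skeletal muscle, hair follicle stem cell and sebaceous gland. Alternatives were DESeq2 1.42.0, scaling by upper quartile or by relative log expression, limma-voom (limma 3.58.1), limma fitted to the authors' normalized values as log2(value + 1), omitting the filter, requiring 1 CPM on average, a sex term read from Xist and Y-linked counts, blocks of neighbouring column tags, and each library left out. Total counts, 17157864 to 25344399 per library, make 3 counts worth 0.117 to 0.173 CPM, which covers counting error only.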

Additional observations from a re-analysis of the deposited data

How the results depend on the processing

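The same 5 guidance genes were called under the sex term, limma-voom, limma on the authors' values, both other scalings, the fit with all genes kept, the fit requiring 1 CPM, and the replicate block by neighbouring tags; DESeq2 called 9. All genes called numbered 247, against 872 with DESeq2, 409 with the sex term and 704 with the replicate block (465 higher and 239 lower, 66.1% higher against 77.7%; DESeq2 64.8%), and the cause was not tested. The columns carry no replicate numbers, so the block used tags whose meaning is not in the labels, and it changed no call of a guidance gene but added 2 partner genes, Mical3 and Farp1, for 7 in all. Leaving out 1 library gave 69 (without DE688) to 121 (without DE684) genes, 1 (without DE688, Slit3 alone) to 3 guidance genes and 0 (without DE688) to 2 partner genes, with fewer libraries per fit by construction. Partner genes called numbered 5, and without DE688 20 partners had an unadjusted p under 0.05 in edgeR.

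The direction of the 5 guidance genes and 5 partners held in all alternatives. Directions near 0 reversed: Ephb6 to −0.0029 with no filter and −0.0036 with limma on the authors' values. With 1 library left out, log2 fold changes ran from −0.016 to 0.028 for Ephb6, −0.10 to 0.048 for Efna3, −0.15 to 0.055 for Plxnd1, −0.13 to 0.047 for Sema3f, −0.22 to 0.14 for Sema7a, −0.20 to 0.52 for Robo1 and −0.021 to 0.11 for Sema4b, with the cause not tested. Depth limits the low members: 3 counts are 0.117 to 0.173 CPM.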

Other observations

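Among partner genes that did not pass, some were lower in every knockout library than in every control library. For all genes tested, the groups did not overlap, in either direction, in 25.6%. Partners with an unadjusted p under 0.05 in edgeR were 17 higher and 13 lower. Rap1a, a small GTPase that plexins act on, had 34.5 ± 1.01 against 41.6 ± 0.592 CPM (SD, n = 3 each; edgeR adjusted p 0.0886). Acp1, a phosphatase that acts on Eph receptors, had 70.9 ± 1.22 against 83.2 ± 3.30 CPM (SD, n = 3 each; edgeR adjusted p 0.0958). Rasa1, a Ras GTPase-activating protein recruited by EphB receptors, had 80.1 ± 2.78 against 93.5 ± 4.59 CPM (SD, n = 3 each; edgeR adjusted p 0.119). These 3 were chosen after their values were seen.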
